A study of Mus musculus with 9 samples.

Results

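The heme synthesis enzymes examined were Alas1, Alas2, Alad, Uros, Urod, Cpox, Ppox and Fech. They were found by matching the transcript accession of each array probe to these 8 genes, without regard to any measured value, and they carried 10 of the 41174 probes on the array and made up 8 of the 16535 genes that could be named. Alas1 and Fech had 2 probes each and the other members 1 each. All 10 probes were well above background on all 9 arrays, so every member passed the filter on dim probes.

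The RNA came from FDCPmix cells, a mouse multipotent hematopoietic line that renews itself in IL-3 and can be led into several blood lineages. Cells of all groups were transduced with the lentiviral vector LLX, sorted as viable GFP-positive cells 5 days later and profiled on single-color arrays from 150 ng of RNA. The EV group received the vector without an shRNA, the Gata2 KD group carried a vector with an shRNA (a short hairpin RNA, which depletes a chosen transcript) against Gata2, and the Pu.1 KD group a vector with an shRNA against Pu.1, the common name of Spi1. Each group held 3 arrays from triplicate samples. GATA2 and PU.1 are transcription factors of progenitors and of myeloid cells, and the study perturbed them to see how each acts on the other and on lineage genes. The methods describe transduction in triplicate without saying whether the triplicates were separate cultures, so the p-values measure the spread between these samples, which may be technical in part. A gene-specific shRNA is described for Gata2, and how many sequences were used against Pu.1 is not given in the sources used here.

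Heme is made in a chain of enzymes that starts and ends in the mitochondrion. ALAS joins glycine to succinyl-CoA and sets the rate of the pathway. The housekeeping form is encoded by Alas1 and the erythroid form by Alas2, on the X chromosome. ALAD then pairs the product into a pyrrole, UROS closes the ring, UROD and CPOX trim its side chains, PPOX oxidizes it and FECH inserts the iron. Red cell precursors make most of the body's heme for hemoglobin, and GATA1 is known to drive the erythroid forms of the pathway, while myeloid cells use heme for peroxidases and cytochromes.

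Levels are given as log2 processed intensity less the array's own 75th percentile, and a change is a difference between the means of 2 groups on that log2 scale. A gene was called when its adjusted p from limma (Benjamini-Hochberg over 36585 probes) was under 0.05, and a gene with several probes was represented by its brightest probe. Levels of different probes cannot be set against each other. By the names of the scans, the only source for the slide, the 9 arrays lay on 3 slides that each held 1 array of every group. Differences within slides are therefore given beside the main values. Between 80.4% and 89.6% of the spots on an array were well above background, no spot was saturated, and the array with the lowest likeness to the rest was EV replicate 3 (mean Pearson correlation across probes 0.960, against at least 0.971 for each other array). Each targeted message was lower in its own knockdown. Gata2 lay between 2.96 and 3.61 in Gata2 KD and between 4.50 and 5.04 in EV, and Spi1 between -3.64 and -3.52 in Pu.1 KD and between -2.07 and -1.66 in EV. Spi1 also lay above EV in Gata2 KD, between -0.66 and -0.36, so it was highest in Gata2 KD and lowest in Pu.1 KD. Gata2 in Pu.1 KD lay between 4.53 and 4.87, within its EV range. The part of Spi1 in the changes of the enzymes in Gata2 KD was not tested.

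Alas1 rose in Gata2 KD and fell in Pu.1 KD, and its changes were the largest of the 8 members in each comparison. The stretches of 250 bases before the start of Alas1, of Cpox, the only other member called in any of the 3 comparisons, and of Alas2, which was not called and is shown as the erythroid counterpart of Alas1, are printed to show what these genes hold next to their starts. They are given 5′ to 3′ on the strand of the gene from RefSeq's mouse assembly GRCm38.p6, and capitals mark the letters found in a search of both strands for the GATA spellings AGATAA and TGATAA, the further GATA spellings AGATAG and TGATAG, the PU.1 spelling GGAAGTG and the KLF1 spelling CACCC. Alas1 lies at chr9:106247955-106248204 on the minus strand, Alas2 at chrX:150547167-150547416 on the plus strand and Cpox at chr16:58669958-58670207 on the plus strand.
Alas1: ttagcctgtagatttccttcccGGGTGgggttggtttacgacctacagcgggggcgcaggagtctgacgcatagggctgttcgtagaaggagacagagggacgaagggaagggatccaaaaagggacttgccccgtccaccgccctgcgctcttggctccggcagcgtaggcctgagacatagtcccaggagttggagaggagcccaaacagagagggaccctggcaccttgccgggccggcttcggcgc
Alas2: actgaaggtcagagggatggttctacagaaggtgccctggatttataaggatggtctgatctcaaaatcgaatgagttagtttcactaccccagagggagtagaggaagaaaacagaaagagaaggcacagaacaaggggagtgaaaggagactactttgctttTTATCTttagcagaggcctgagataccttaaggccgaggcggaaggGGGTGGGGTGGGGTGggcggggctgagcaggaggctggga
Cpox: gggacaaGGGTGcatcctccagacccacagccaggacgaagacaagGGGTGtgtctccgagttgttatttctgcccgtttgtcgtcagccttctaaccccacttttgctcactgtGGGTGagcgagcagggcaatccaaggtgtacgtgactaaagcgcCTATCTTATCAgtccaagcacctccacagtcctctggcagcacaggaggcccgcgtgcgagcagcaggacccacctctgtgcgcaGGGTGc

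In the Alas1 stretch, the upstream of its 2 listed starts, the search found 1 CACCC on the opposite strand, beginning 228 bases before the start, and 0 of the GATA or PU.1 spellings. The stretch before the downstream Alas1 start also held 1 CACCC and 0 of the others. Alas2 held 1 AGATAA on the opposite strand, 86 bases before the start, and 3 CACCC spellings next to each other that read GGGTGGGGTGGGGTG on the gene's strand. Cpox held TGATAA and AGATAG on the opposite strand, 86 and 91 bases before the start and sharing 1 letter, and 4 CACCC spellings. Of the 10 windows of the 7 members with an entry in the table, the second Uros window was the only further one with a GATA spelling (TGATAA and AGATAG), and 0 held GGAAGTG. Over all 32851 windows of the same length, 26.5% held at least 1 of the 4 GATA spellings (9.99% AGATAA, 7.94% TGATAA, 7.71% AGATAG and 6.35% TGATAG), 8.55% held GGAAGTG and 52% held CACCC. These matches describe the letters and are no evidence of binding, which these arrays did not measure.

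The brighter Alas1 probe (A_51_P128929) read 2.65, 2.87 and 3.24 in EV replicates 1 to 3. In Gata2 KD it read 5.33, 5.51 and 5.38, and in Pu.1 KD 2.04, 1.84 and 1.76. The 3 groups did not overlap at any array, with Gata2 KD on top, EV in the middle and Pu.1 KD at the bottom. The mean was 2.92 ± 0.30 (SD, n = 3) in EV, 5.40 ± 0.09 in Gata2 KD and 1.88 ± 0.14 in Pu.1 KD.

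**Figure D1:**
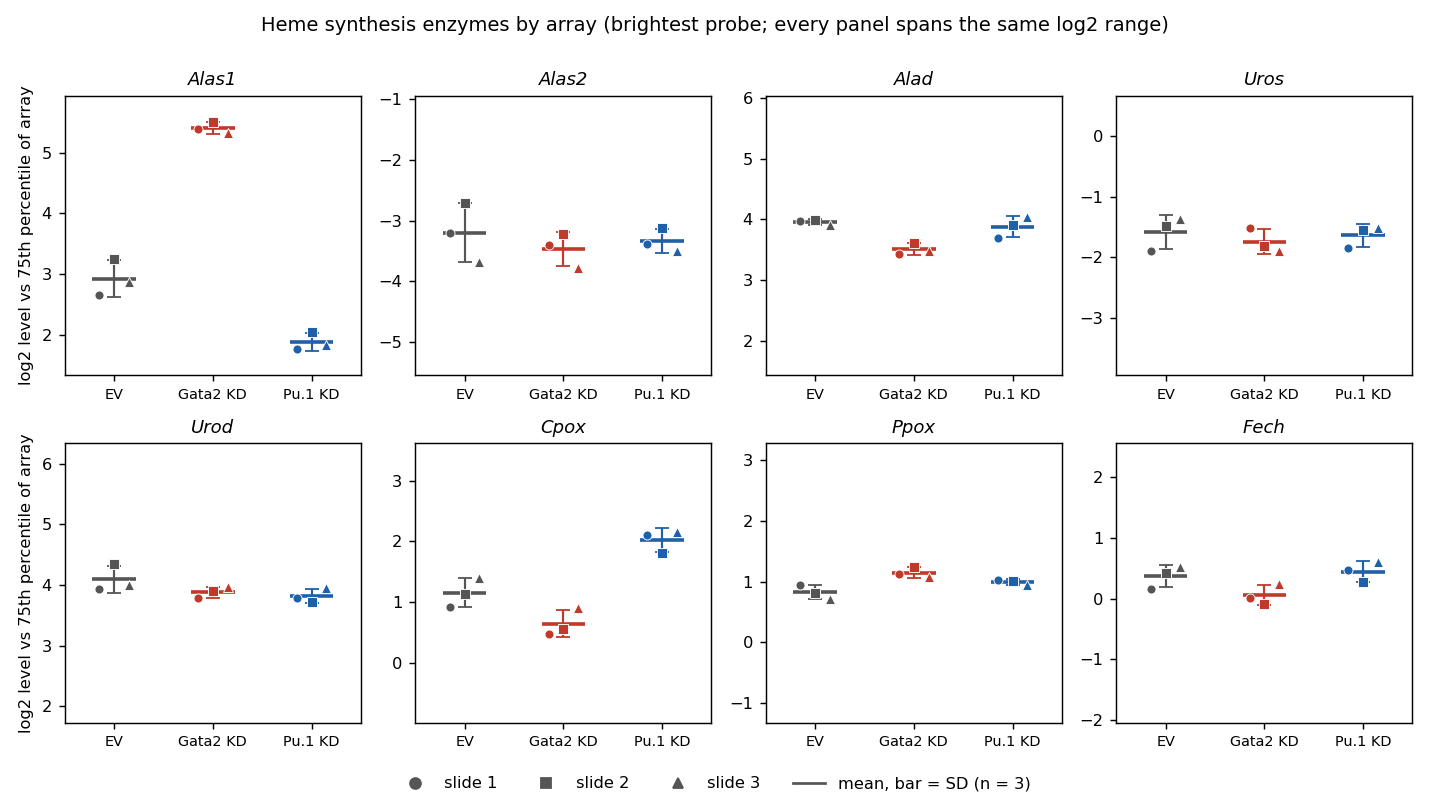
Level of each of the 8 heme synthesis enzymes on the 9 arrays (log2 intensity less the array's 75th percentile), by group, with the marker shape giving the slide, the line the group mean and the bar the SD (n = 3). Every panel spans the same log2 range. Alas1 separates the 3 groups, and Cpox separates both knockdowns from each other and lies between them in EV. All Gata2 KD arrays lie below EV for Alad and above EV for Ppox, neither of them called. Alas2, Uros, Urod and Fech overlap EV in both knockdowns.

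Gata2 KD raised Alas1 by 2.49 (SE 0.18, 95% interval 2.08 to 2.89), a 5.60-fold rise with an adjusted p of 0.000105 from limma. Within the 3 slides the rise ran from 2.26 to 2.74. Among the 15808 genes tested it was the 139th highest rise. The dimmer Alas1 probe (A_52_P129756) read 0.86, 0.98 and 1.03 in EV and 3.21, 3.18 and 3.51 in Gata2 KD. Its rise was 2.35 (SE 0.15, adjusted p 5.46e-05), 5.09-fold.

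Pu.1 KD lowered Alas1 by a smaller amount. The brighter probe changed by -1.04 (SE 0.18, 95% interval -1.45 to -0.63), 2.06-fold lower with an adjusted p of 0.0214, and within the slides the difference ran from -1.21 to -0.88. The dimmer probe read -0.15, -0.15 and -0.41 in Pu.1 KD and changed by -1.19 (adjusted p 0.00656). The call of the brighter probe was lost under 8 of 21 alternatives, while its change stayed between -1.18 and -0.88. They were the replicate number as a block (adjusted p 0.0941), scaling to the median (0.0586), a fit of only the groups compared (0.103), and leaving out EV replicate 2 (0.0686), Gata2 KD replicate 2 (0.0505), or Pu.1 KD replicate 1 (0.0664), 2 (0.0921) or 3 (0.0964). That of the dimmer probe was lost under 1 of 20, the replicate number as a block (0.0518).

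Compared directly, the knockdowns differed in Alas1 by 3.53 (SE 0.18, 95% interval 3.12 to 3.93), Gata2 KD being 11.5-fold higher, with an adjusted p of 7.74e-06. Within the slides this difference ran from 3.47 to 3.62, and the dimmer probe gave 3.54. The calls of Alas1 in Gata2 KD against EV and in this comparison held under all alternatives tried for either probe.

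Alas2 stood in contrast to Alas1 in that it was not called in any comparison. The probe of this erythroid form was dim, at -3.21, -3.68 and -2.71 in EV, -3.78, -3.22 and -3.40 in Gata2 KD and -3.12, -3.50 and -3.38 in Pu.1 KD. In every group it read lowest on slide 3 and highest on slide 2. How much of such a dim reading is background was not tested, which limits the contrast. The 3 groups overlapped throughout, and the EV arrays alone spread over the range of both knockdowns but for 1 Gata2 KD array. Its change was -0.27 in Gata2 KD (95% interval -0.87 to 0.34, adjusted p 0.844) and -0.13 in Pu.1 KD (-0.74 to 0.47, adjusted p 0.989), and neither interval reaches the size of the Alas1 rise. The difference Alas2 minus Alas1, taken on each array, differed from EV by -2.75 in Gata2 KD and by 0.91 in Pu.1 KD. Between the knockdowns it differed by -3.66. In all 3 comparisons the groups did not overlap, which gave an exact two-sided permutation p of 0.1 (adjusted over the 3 comparisons 0.1), the smallest that 3 arrays against 3 allow. Since Alas2 changed little, this difference mostly repeats the change of Alas1 with its sign turned and is no separate evidence.

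Cpox, the coproporphyrinogen oxidase of the mitochondrion, moved the opposite way to Alas1. It read 0.92, 1.40 and 1.13 in EV, 0.90, 0.56 and 0.47 in Gata2 KD and 1.80, 2.15 and 2.11 in Pu.1 KD. The highest Gata2 KD array lay just under the lowest EV array, and all Pu.1 KD arrays lay above both groups. Between the knockdowns Cpox was lower on the Gata2 KD side, by a log2 difference of -1.38 (SE 0.19, 95% interval -1.81 to -0.95), 2.60-fold, with an adjusted p of 0.00203 from limma and -1.63 to -1.24 within the slides. This call held under all 21 alternatives. Against EV neither neighbour in the order was called. The change was 0.87 in Pu.1 KD (95% interval 0.44 to 1.30, adjusted p 0.0536), with 0.67 to 1.19 within the slides, and -0.51 in Gata2 KD (-0.94 to -0.08, adjusted p 0.238). The Pu.1 KD value passed the threshold under 6 of 21 alternatives, among them the slide as a block (adjusted p 0.0176).

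**Figure D2:**
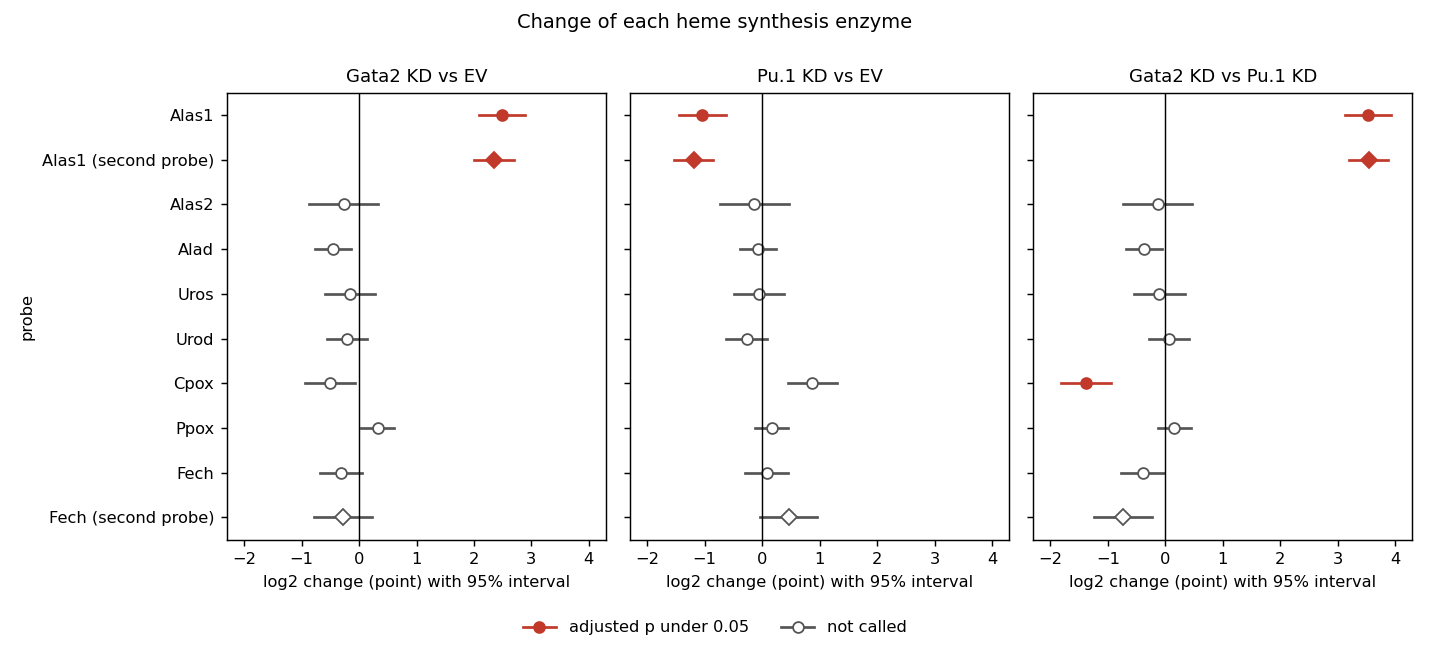
Log2 change of each probe of the heme synthesis enzymes in the 3 comparisons (point) with its 95% interval from limma (bar), filled red where the adjusted p was under 0.05. Alas1 lies at 2.49 in Gata2 KD and -1.04 in Pu.1 KD with both probes alike, and Cpox at -1.38 between the knockdowns.

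None of the enzymes between ALAS and CPOX passed the test in any comparison. Alad, the second enzyme, read 3.98, 3.90 and 3.99 in EV, 3.48, 3.62 and 3.43 in Gata2 KD and 3.90, 4.04 and 3.69 in Pu.1 KD. Every Gata2 KD array was below every array of the other groups, but the change against EV of -0.45 (SE 0.14) did not pass the test (adjusted p 0.135). Uros lay between -1.90 and -1.37 on all arrays and Urod between 3.73 and 4.35, and for both genes the groups overlapped in every comparison. In Gata2 KD Uros changed by -0.15 (95% interval -0.59 to 0.28) and Urod by -0.21 (-0.56 to 0.14), and in Pu.1 KD by -0.05 (-0.49 to 0.39) and -0.27 (-0.62 to 0.08).

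The last steps did not pass the test either. Ppox, the protoporphyrinogen oxidase, read 0.95, 0.72 and 0.82 in EV, 1.08, 1.25 and 1.13 in Gata2 KD and 1.01, 0.95 and 1.04 in Pu.1 KD. It was the only member besides Alas1 whose Gata2 KD arrays all lay above the EV arrays, by 0.32 (SE 0.13, adjusted p 0.269). Fech, the ferrochelatase, lay between 0.17 and 0.53 in EV, between -0.09 and 0.24 in Gata2 KD and between 0.27 and 0.60 in Pu.1 KD at its brighter probe. The 2 Fech probes agreed in sign in each comparison. Between the knockdowns they differed by -0.39 (adjusted p 0.243) and -0.74 (adjusted p 0.0796), and the dimmer one passed under 5 of 20 alternatives, among them the slide as a block (0.0181).

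Counted together, 1 of the 8 enzymes was called higher in Gata2 KD against EV and 0 lower, where 7.15% of all genes tested were called, 4.21% higher and 2.95% lower. At an unadjusted p under 0.05 the counts in the same fit were 2 higher and 2 lower. The groups did not overlap for 4 of the 8 (Alas1, Alad, Cpox and Ppox), against 23.1% of all genes. In Pu.1 KD against EV 0 were called higher and 1 lower, against 3.61% of all genes (1.45% higher and 2.16% lower), with 1 higher and 1 lower at an unadjusted p under 0.05, and the groups did not overlap for 2 (Alas1 and Cpox), against 20.6%. Between the knockdowns 1 was called higher in Gata2 KD (Alas1) and 1 lower (Cpox), against 12.4% (6.77% and 5.60%), and 5 did not overlap (Alas1, Alad, Cpox, Ppox and Fech), against 30.1%. The F test over the 3 groups called 2 of 8 (Alas1 and Cpox), against 11.7% of all genes. With 8 genes, each called share rests on 1 or 2 members. The median change of the 8 was -0.24 in Gata2 KD, beside -0.09 over all genes, and -0.07 in Pu.1 KD, beside -0.04.

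**Figure D3:**
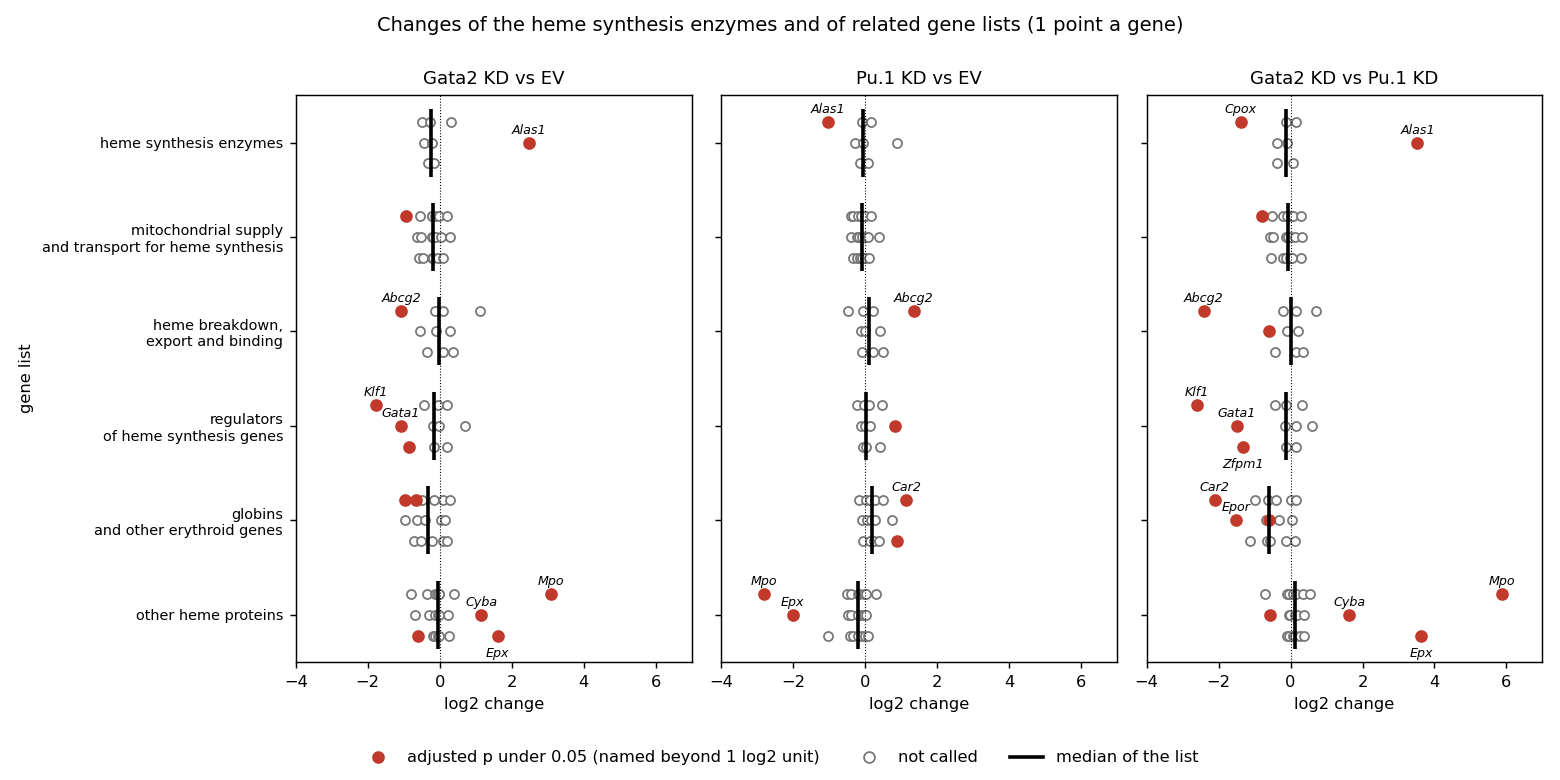
Log2 change of every tested gene of the heme synthesis enzymes and of 5 related lists in the 3 comparisons, 1 point a gene, filled red where the adjusted p was under 0.05 and named beyond 1 log2 unit, with the median of each list as a black line. Most points lie near 0, and the called genes of the regulator and erythroid lists lie to the left in Gata2 KD against EV while Mpo, Epx, Cyba and Alas1 lie to the right.

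Among the genes that feed the pathway at most 1 was called in each comparison of the main fit. Of 22 genes for mitochondrial supply and transport (among them the mitoferrins, the iron-sulfur cluster genes and the porphyrin carriers), 20 were tested, and in Gata2 KD 0 rose and 1 fell, where 7.15% of all genes were called. It was Abcb6, a porphyrin transporter, at 1.48, 1.38 and 1.69 in EV and 0.51, 0.52 and 0.72 in Gata2 KD, a change of -0.93 (adjusted p 0.00605). At an unadjusted p under 0.05 in the same limma fit, 0 of the 20 were higher and 6 lower in Gata2 KD. The Gata2 KD and EV arrays did not overlap for 11 of the 20, against 23.1% of all genes. The list's median was -0.20, beside -0.09 over all genes. In Pu.1 KD 0 of the 20 were called (median -0.10), against 3.61% of all genes, while 1 was higher and 3 lower at an unadjusted p under 0.05 in the same limma fit. Between the knockdowns only Isca1, an iron-sulfur assembly gene, was called (-0.79, adjusted p 0.0163), where 12.4% of all genes were called. The Isca1 call was lost under 7 of 13 alternatives, including the fits without each Pu.1 KD array in turn and without Gata2 KD replicate 2 or 3 (adjusted p up to 0.0736). The highest adjusted p beside such a count is that over all 13 alternatives. Heme breakdown, export and binding had 10 tested of 12 genes. Against 7.15% of all genes called in Gata2 KD and 3.61% in Pu.1 KD, its 1 called member in either was Abcg2, a transporter that can export porphyrins. It changed by -1.07 in Gata2 KD (adjusted p 0.00604) and by 1.35 in Pu.1 KD (adjusted p 0.00551). Scaling to the median removed the first of these calls (adjusted p 0.0592). The list's medians were -0.01 and 0.11. Between the knockdowns Abcg2 (-2.41) and Slc48a1, a heme carrier of the endosome (-0.60, adjusted p 0.0447), were lower in Gata2 KD, where 12.4% of all genes were called. The Slc48a1 call was lost under 9 of 13 alternatives, leaving out any 1 array of either knockdown or EV replicate 2 included (adjusted p up to 0.205). Hmox1, the heme oxygenase that opens the ring, read 2.49, 2.72 and -0.23 in EV, 2.93, 2.96 and 2.42 in Gata2 KD and 2.18, 1.98 and 2.03 in Pu.1 KD. EV replicate 3 stood far below the other arrays. With it the changes were 1.11 (adjusted p 0.589) and 0.41 (adjusted p 0.975), and without it 0.17 (adjusted p 0.956) and -0.54 (adjusted p 0.353), so the Pu.1 KD value turned its sign and neither was called.

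Where regulators of heme synthesis and genes of red cells were called, they lay on the side of Cpox and not of Alas1. Of 11 regulators, all tested, 3 fell in Gata2 KD and 0 rose (median -0.16), where 2.95% of all genes were called lower and 4.21% higher. Klf1, an erythroid transcription factor, read -1.15, -1.11 and -0.97 in EV, -3.00, -2.82 and -2.71 in Gata2 KD and -0.35, -0.21 and -0.15 in Pu.1 KD. The groups did not overlap, and it changed by -1.76 in Gata2 KD (adjusted p 0.00016) and by 0.84 in Pu.1 KD (adjusted p 0.0174), the only called regulator there (median 0.04), where 1.45% of all genes were called higher. The rise in Pu.1 KD lost its call under 7 of 13 alternatives, including the fits without each Pu.1 KD array in turn, EV replicate 1 or EV replicate 2 (adjusted p up to 0.0829). Gata1, the erythroid GATA factor, fell by 1.08 in Gata2 KD (adjusted p 0.0128), and Zfpm1, its cofactor FOG1, fell by 0.86 (adjusted p 0.00611). Scaling to the median took both below the threshold (adjusted p 0.0771 and 0.0827), and so did leaving out Gata2 KD replicate 1 (0.0539) or 3 (0.0528) for Gata1. The changes of the same 2 genes in Pu.1 KD were 0.42 (adjusted p 0.435) and 0.48 (adjusted p 0.121). Bach1, a heme-sensing repressor, gave the largest value upward in Gata2 KD, 0.70, which was not called (adjusted p 0.0583). Between the knockdowns 3 were lower in Gata2 KD (Klf1, Gata1 and Zfpm1) and 0 higher, where 5.60% of all genes were called lower and 6.77% higher.

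Among 21 globins and other erythroid genes, 16 were tested, 2 fell in Gata2 KD (Epor, the erythropoietin receptor, and Car2, a carbonic anhydrase) and 0 rose, with a median of -0.32, against the same 2.95% and 4.21% of all genes. Epor changed by -0.65 (adjusted p 0.0353) and Car2 by -0.98 (adjusted p 0.0212). In Pu.1 KD these 2 were higher by 0.87 (adjusted p 0.0165) and 1.13 (adjusted p 0.0196), 0 were lower, and the median was 0.20, where 1.45% of all genes were called higher and 2.16% lower. These 4 calls against EV were lost when single arrays were left out. In Gata2 KD that of Epor was lost under 10 of 13 alternatives, leaving out any 1 EV or Gata2 KD array or Pu.1 KD replicate 1 or 2 included (adjusted p up to 0.132), and that of Car2 under 5, without EV replicate 2 or Gata2 KD replicate 2 or 3 included (up to 0.186). In Pu.1 KD both were lost without any 1 Pu.1 KD array and without EV replicate 1, Epor also without EV replicate 2 (adjusted p up to 0.0700 with an array left out) and Car2 without EV replicate 3 (up to 0.0897). The replicate number as a block also removed both (adjusted p 0.0781 for Epor and 0.0667 for Car2), and scaling to the median removed Car2 (0.128). The alpha globin Hba-a1 was not called in either, at 0.10 (adjusted p 0.968) and 0.75 (adjusted p 0.163). Its probe may also read its near-identical copy. Hbb-b1 was not analysed here. Between the knockdowns 3 genes of the list were lower on the Gata2 KD side (Car2, Epor and the embryonic globin Hbb-y) and 0 higher. Of all genes 5.60% were called lower there and 6.77% higher. The median of the list between the knockdowns was -0.59, beside -0.03 over all genes. At an unadjusted p under 0.05 from limma 9 of the 16 were lower and 0 higher. The 2 knockdowns did not overlap for 10 of the 16, against 30.1% of all genes. The call of Hbb-y was lost under 9 of 13 alternatives, leaving out any 1 array of either knockdown or EV replicate 2 included (adjusted p up to 0.154).

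Among heme proteins outside the red cell lineage, 3 of the called ones lay on the side of Alas1. Of 22 tested, 3 rose and 1 fell in Gata2 KD (median -0.05), against 4.21% of all genes called higher and 2.95% lower. In Pu.1 KD 2 fell and 0 rose (median -0.20), against 2.16% lower and 1.45% higher. Mpo, the neutrophil peroxidase, read 5.83, 5.85 and 6.08 in EV, between 8.98 and 9.02 in Gata2 KD and 3.01, 3.35 and 2.98 in Pu.1 KD. Its 3 groups stood in the same order as those of Alas1, with changes of 3.08 (adjusted p 1.71e-05) and -2.81 (adjusted p 0.000213). Epx, the eosinophil peroxidase, rose by 1.61 (adjusted p 0.00259) and fell by 2.02 (adjusted p 0.00287). Cyba, a chain of the phagocyte cytochrome b, rose by 1.15 in Gata2 KD (adjusted p 0.00073), and Cyb5a, a cytochrome b5, fell by 0.60 (adjusted p 0.0263), a call lost under 10 of 13 alternatives, those with each array but Pu.1 KD replicate 2 left out included (adjusted p up to 0.314). The cytochromes of the respiratory chain in the list (Cyc1, Cycs, Sdhc and Sdhd) were not called in either knockdown, with changes from -0.30 to -0.14 in Gata2 KD and from -0.42 to -0.04 in Pu.1 KD. Both comparisons against EV use the same EV arrays, so values that lie opposite in the 2 are given side by side and not as support of each other.

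**Figure D4:**
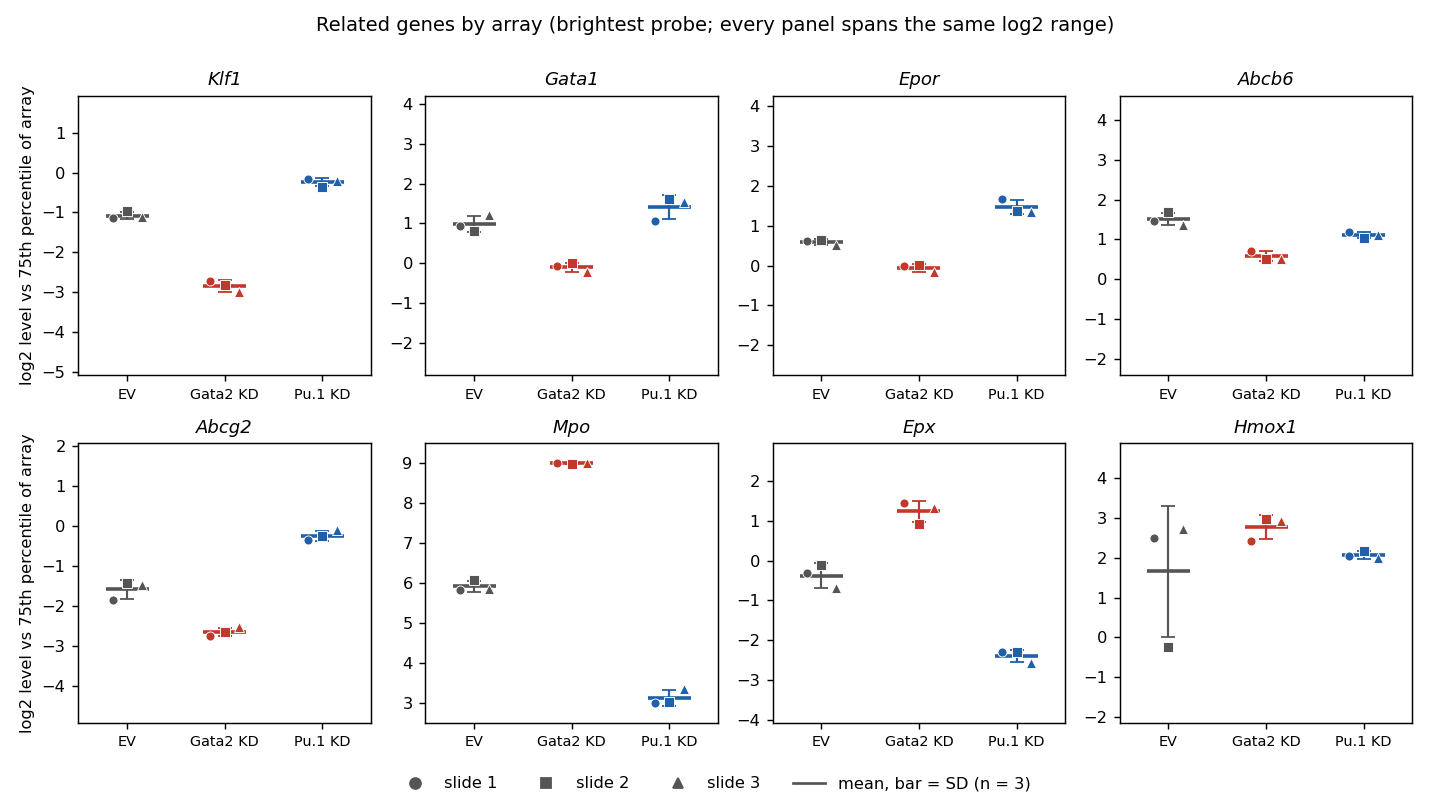
Level of 8 related genes on the 9 arrays (log2 intensity less the array's 75th percentile), drawn as for the enzymes, with the mean and SD (n = 3) of each group. Klf1, Gata1, Epor and Abcg2 are lowest in Gata2 KD and highest in Pu.1 KD, Mpo and Epx the reverse, Abcb6 is lowest in Gata2 KD, and the wide Hmox1 bar in EV comes from 1 array at -0.23.

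Summed levels of lineage markers were set beside these changes, and a sum weighs its brightest probe most. The summed level of 10 neutrophil markers, all detected on every array, lay between 7.91 and 8.08 in EV, between 10.1 and 10.4 in Gata2 KD and between 6.72 and 6.96 in Pu.1 KD. The 6 monocyte and macrophage markers on the array (of 7) lay between 1.81 and 1.95, 5.13 and 5.29, and 1.17 and 1.38 in the same order. Of these, 5 were above background on all arrays of each group. The 11 erythroid markers on the array (of 14) lay between 7.78 and 8.28 in EV, between 7.02 and 7.61 in Gata2 KD and between 7.92 and 8.17 in Pu.1 KD. Most of that sum was Hbb-bt, an adult beta globin, which read between 7.70 and 8.21 in EV and between 6.90 and 7.50 in Gata2 KD and was not called (change -0.71, adjusted p 0.124). The 7 mast cell and basophil markers (of 8) lay between 6.79 and 7.01, 4.50 and 4.61, and 6.15 and 6.31. All 7 progenitor markers, Kit, Cd34 and the IL-3 receptor chain Il3ra among them, were detected on every array, with sums between 6.08 and 6.38, 6.58 and 6.82, and 5.77 and 5.89. The 7 megakaryocyte markers gave 5.97 to 6.34 in EV, 6.03 to 6.59 in Gata2 KD and 7.23 to 7.45 in Pu.1 KD, and the 5 lymphoid markers on the array (of 6) spanned nearly the same range in each group, with 1.53 as the highest sum. The neutrophil, monocyte and progenitor sums stood in the order of Alas1, and the other sums did not. Single members could differ from their sum. Of the progenitor markers, Cd34 changed by 2.17 in Gata2 KD and by -0.92 in Pu.1 KD. Kit was called higher in both, by 0.75 and 1.41 (adjusted p 0.0241 and 0.00332 from limma). Among the monocyte markers in Pu.1 KD, Adgre1 was called lower (-0.99), while Csf1r (0.25) and Ctss (0.09) were not called. The part of any list in the change of Alas1 was not tested. In bulk RNA a change in the number of cells of a type cannot be told apart from a change in the RNA per cell.

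Across the 9 arrays the genes whose levels followed Alas1 most closely, of 14457 ranked by Pearson correlation, included Gsdmd (0.999) and H2-Aa (0.995), which code for a pore-forming protein and a class II histocompatibility chain. They changed by 1.89 and 4.20 in Gata2 KD and by -0.69 and -1.34 in Pu.1 KD. The closest to Alas2 were Car4 (0.986), Sync (0.980) and Fgf12 (0.979), with changes between -0.41 and -0.28 in Gata2 KD. The 9 arrays share 3 slides and 3 groups, so these values describe likeness and carry no p.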

How the data were processed

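Single-color Agilent arrays of the mouse genome, with a design annotated to mm8, measured the RNA of 9 samples. The authors deposited the output of Agilent Feature Extraction 10.1.1.1 for each array, with processed intensity values that are background-subtracted and detrended but not normalized between arrays. The deposited log2 values, 1 table for the 9 arrays, track each array's log2 median signal (r of at least 0.997) and were used as an alternative only. The authors normalized the arrays and tested them with LIMMA and SAM. The method of normalization is not given in the sources used here, so the scale between arrays stays unknown, and SAM was not run here.

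Control spots were left out, outlier-flagged spots (47 to 96 per array) were set to missing, repeated spots were combined as a mean of log2 values and the array's 75th percentile was subtracted. A probe was tested when well above background on at least 3 of 9 arrays (for a probe with several spots, when at least 50% of them were) with 2 or more values per group, which left 36585 of 41174 probes. Accessions were matched to RefSeq symbols of GRCm38.p6, which named 23374 probes and 16535 genes. Since this is not the build of the design, probes have no coordinates here. One linear model with a mean per group was fitted to all 9 arrays by limma 3.58.1 under R 4.3.3 (lmFit, contrasts.fit and eBayes, two-sided), with the code tested on simulated data. The number of arrays limits the precision.

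The enzymes were fixed by name, and the members, the 5 related lists and the marker lists were chosen with earlier results of these data known. Named genes were all 8 enzymes with every probe, the targeted genes, Gata1, up to 5 called members of each list by size of change, a defining member of each list, and the 3 genes most like Alas1 and Alas2, some of which are not reported here. Bach1 and the respiratory cytochromes fall outside this rule and were named after their values were seen. Promoter stretches came from RefSeq windows of GRCm38.p6. Alternatives were the replicate number or the slide as a block, normexp (offset 50, on median and background signals since no mean signal was present), quantile normalization, scaling to the median, 2 other filters on dim probes, flagged spots kept, the deposited log2 values, trend and robust eBayes, a fit of only the groups compared, probes averaged and each array left out. A second probe of Alas1 and of Fech, and Hmox1 without EV replicate 3, were added after seeing the data.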

Additional observations from a re-analysis of the deposited data

Results flagged for a closer look

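The change of Alas1 against EV differed between the knockdowns by 3.53 on the log2 scale (Gata2 KD minus Pu.1 KD, adjusted p 7.74e-06 from limma), and it was called in opposite directions in the 2 knockdowns. The change of Cpox against EV differed by -1.38 (adjusted p 0.00203 from limma) the other way, without a call against EV in either. Both knockdowns were compared with the same EV arrays, which drop out of this difference.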

How the results depend on the processing

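The calls of Alas1 in Gata2 KD against EV and of Alas1 and Cpox between the knockdowns were kept under all 21 alternatives. The count of enzymes called between the knockdowns was 2 throughout, and that of the F test 2 or 3. In Gata2 KD against EV the count rose from 1 to 2 with the trend and robust settings, where Alad was added (adjusted p 0.0361) and 9.42% of all genes were called. In Pu.1 KD against EV it was 0 with the replicate number as a block, with scaling to the median and with only the 2 groups compared (0.924%, 1.39% and 0.848% of all genes called), from 0 to 1 with single arrays left out, and 2 with the slide as a block, normexp, quantile normalization, the deposited log2 values, the filter on all 9 arrays and the trend and robust settings, where Cpox was added and 4.31% to 6.95% of all genes were called. The Alas2 minus Alas1 difference kept its sign, from -2.97 to -2.48 in Gata2 KD against EV, from 0.69 to 1.04 in Pu.1 KD against EV and from -3.73 to -3.50 between the knockdowns. No enzyme call was reversed, and the cause of the lost calls was not tested. The median change of all genes in Gata2 KD against EV, -0.09, lay between -0.05 and -0.02 with other scaling.

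Of the related lists, in Gata2 KD against EV the supply list had 2 called genes with the slide as a block and 3 with normexp, the breakdown list 2 with the slide and 0 with scaling to the median, the regulators 1 with scaling to the median, and the erythroid list 0 with the replicate block, 4 with the slide and 0 with scaling to the median, and 0 to 2 with single arrays left out. In Pu.1 KD against EV the regulators had 0 with the replicate block and with scaling to the median and 0 to 1 with single arrays left out, and the erythroid list 0 with the replicate block, 1 with scaling to the median and 0 to 2 with single arrays left out. Between the knockdowns the supply list had 0 with the replicate block, 3 with the slide, 3 with normexp, 0 with scaling to the median and 0 to 2 with single arrays left out, the breakdown list 1 with the replicate block, 1 with scaling to the median and 1 to 2 with single arrays left out, and the erythroid list 8 with the slide, 5 with normexp and 2 to 5 with single arrays left out. The shares of all genes called moved the same way, in Gata2 KD against EV to 4.50% with the replicate block, 4.55% with scaling to the median, 8.70% with normexp and 10.2% with the slide, and between the knockdowns to 8.51%, 8.15%, 14.3% and 17.6%.

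Arrays with the same replicate number on different slides showed no common direction of deviation (correlations of their deviations from -0.55 to 0.35). The 2 pairs with the same number that shared a slide correlated at 0.52 and 0.65, so number and slide cannot be told apart in them. Whether the numbers pair the samples is not settled by these values. With the replicate number as a block the enzymes called numbered 1 in Gata2 KD against EV, 0 in Pu.1 KD against EV and 2 between the knockdowns, and 146 of all genes were called in Pu.1 KD against EV, where the fit without it called 570. Arrays of the same slide correlated from -0.04 to 0.72. A dim probe such as that of Alas2 depends more on the background correction than a bright one.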
